A study of Rattus norvegicus with 24 samples.

Results

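Of the 30560 gene identifiers counted in neonatal rat lung and liver, 35 had group means with desisobutyryl ciclesonide apart from vehicle in both tissues. Their group means with dexamethasone stayed near those with vehicle. With desisobutyryl ciclesonide 11 were higher and 24 were lower in both tissues. That split depends on the scaling: the same rule gave 13 higher and 17 lower with TMM-scaled library sizes, and 13 higher and 15 lower with DESeq2 size factors. The 35 were chosen on their values, by mean CPM, the reads of a gene per 1000000 reads counted to genes, over the 4 libraries of a group. The mean CPM + 0.5 with desisobutyryl ciclesonide had to be at least 1.5 times that with vehicle, or at most 1/1.5 of it, in the same direction in lung and liver. The dexamethasone fold had to lie between 1/1.25 and 1.25 in both tissues, and at least one group of each tissue had to average 3 CPM. The folds that follow describe that choice and are not evidence for it.

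The pups were wild-type Sprague Dawley rats, nursed by their dams. They were injected subcutaneously once a day, 5 times from postnatal day 1, with vehicle (2.5% ethanol), with 0.1 mg/kg dexamethasone or with 1.25 mg/kg desisobutyryl ciclesonide. Whole lung and liver were frozen at postnatal day 6, 24 hours after the last injection, and each tissue and treatment is represented by 4 libraries. The doses differ, so the values of the drugs are set side by side and no difference between the drugs is tested. The labels give no sex, litter or dam, and the samples are bulk tissue, in which fewer cells of a type and less RNA per cell cannot be told apart.

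Both drugs are ligands of the glucocorticoid receptor, a nuclear receptor that moves into the nucleus when bound and raises or lowers the transcription of its target genes. Dexamethasone acts as given. Desisobutyryl ciclesonide is the active form that esterases release from ciclesonide, an inhaled prodrug. In newborn lung, glucocorticoids are known for speeding maturation and thinning the septa between airspaces. In liver they are known for inducing enzymes of glucose synthesis and amino acid breakdown.

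No gene names come with the identifiers. The table of 47357 RefSeq genes of the rat build GRCr8 at hand holds no Ensembl identifiers, so 0 of the 30560 identifiers could be matched. The gene lists, the markers of cell types and the sequences could therefore not be tied to the 35 identifiers, no function is given for any of them, and the tissue labels were not checked against marker genes. The strongest 2 identifiers in each direction are given by identifier, and the others by their place in the order of the smaller of the lung and liver folds.

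Of the 10675 identifiers that reached the level minimum in both tissues, 2107 had dexamethasone folds inside the window in both. Among these 2107, the desisobutyryl ciclesonide fold passed the limit in lung for 92 and in liver for 94. It passed in both tissues in the same direction for the 35 described here and in opposite directions for 2. Without the condition on dexamethasone, 300 of the 10675 identifiers passed in both tissues in the same direction, 130 higher and 170 lower, against 56 in opposite directions. Just inside the limit among the higher identifiers, folds were 1.67 in lung and 1.51 in liver, and just outside it 1.46 and 1.53. Among the lower ones the folds just inside were 0.633 and 0.663, and just outside 0.667 and 0.643.

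**Figure D1:**
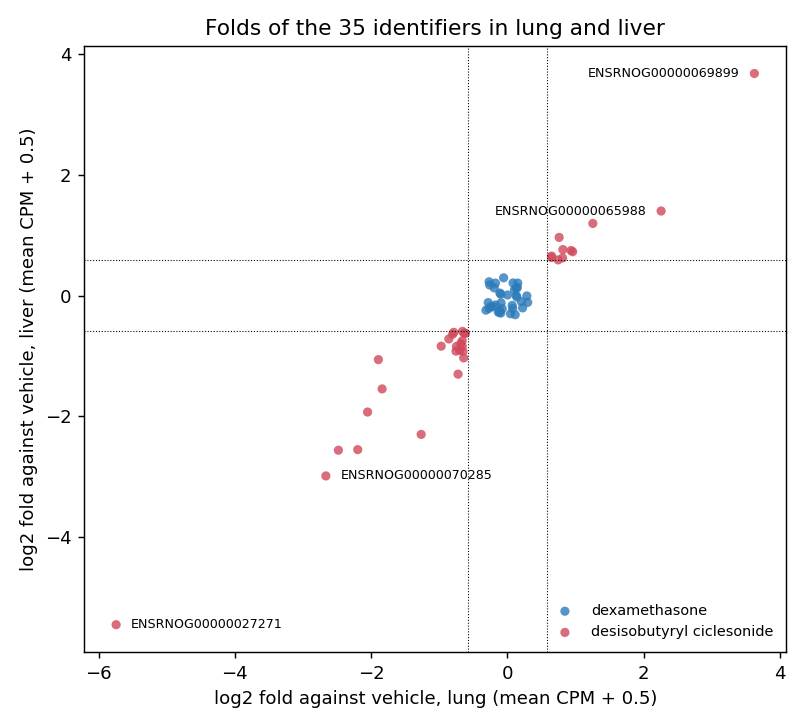
Log2 fold against vehicle in lung (x axis) and liver (y axis) of the 35 identifiers, on mean CPM + 0.5, with 1 red point per identifier for desisobutyryl ciclesonide and 1 blue point for dexamethasone; dotted lines mark the 1.5-fold limits. The red points lie outside the limits and the blue points near 0, as the choice of members fixes; most higher identifiers sit close to the limit, with folds of 1.57 to 12.3 in lung.

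Most of the 35 differences were modest. Among the 11 higher identifiers the median fold was 1.76 in lung (range 1.57 to 12.3) and 1.68 in liver (range 1.51 to 12.8), and 3 were at least 2-fold higher in both tissues. Among the 24 lower ones the median fold down was 1.71 in lung (range 1.53 to 53.5) and 1.88 in liver (range 1.51 to 43.8), and 8 were at least 2-fold and 4 at least 4-fold lower in both. The lung and liver folds of an identifier were within 1.25 times of each other in 28 of the 35, with a largest ratio of 2.05. Summed over the 24 lower identifiers, lung held 1352 ± 74.9 CPM (SD, n = 4) with vehicle, 1295 ± 164 with dexamethasone and 588 ± 77.3 with desisobutyryl ciclesonide. In liver the sums were 816 ± 117, 749.7 ± 127 and 332 ± 48.4 CPM. The 11 higher identifiers summed to 364 ± 35.1, 382 ± 65.4 and 703 ± 86.0 CPM in lung and to 419.5 ± 38.3, 427 ± 106 and 771 ± 157 CPM in liver.

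Library by library, the 35 identifiers followed more than one pattern behind these means. Some were shifted evenly in every desisobutyryl ciclesonide library, and others were high or low in particular replicate numbers. The 4 desisobutyryl ciclesonide libraries lay beyond all 8 vehicle and dexamethasone libraries, in lung and again in liver, for 4 of the 11 higher identifiers and 11 of the 24 lower ones. Over all 10675 identifiers at the level minimum, 0.328% were separated so upward and 0.843% downward. In lung alone the count was 7 of 11 against 2.5% upward and 16 of 24 against 7.08% downward, and in liver 6 of 11 against 2.28% and 12 of 24 against 2.3%. Against the vehicle libraries alone it was 9 of 11 (11.3% of all) and 21 of 24 (28.5%) in lung, and 6 of 11 (5.41%) and 17 of 24 (9.27%) in liver. The rule used these contrasts, so nothing is read from the counts beyond how the members are made up. Fewer members were separated in liver than in lung, and so were fewer of all 10675 identifiers.

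**Figure D2:**
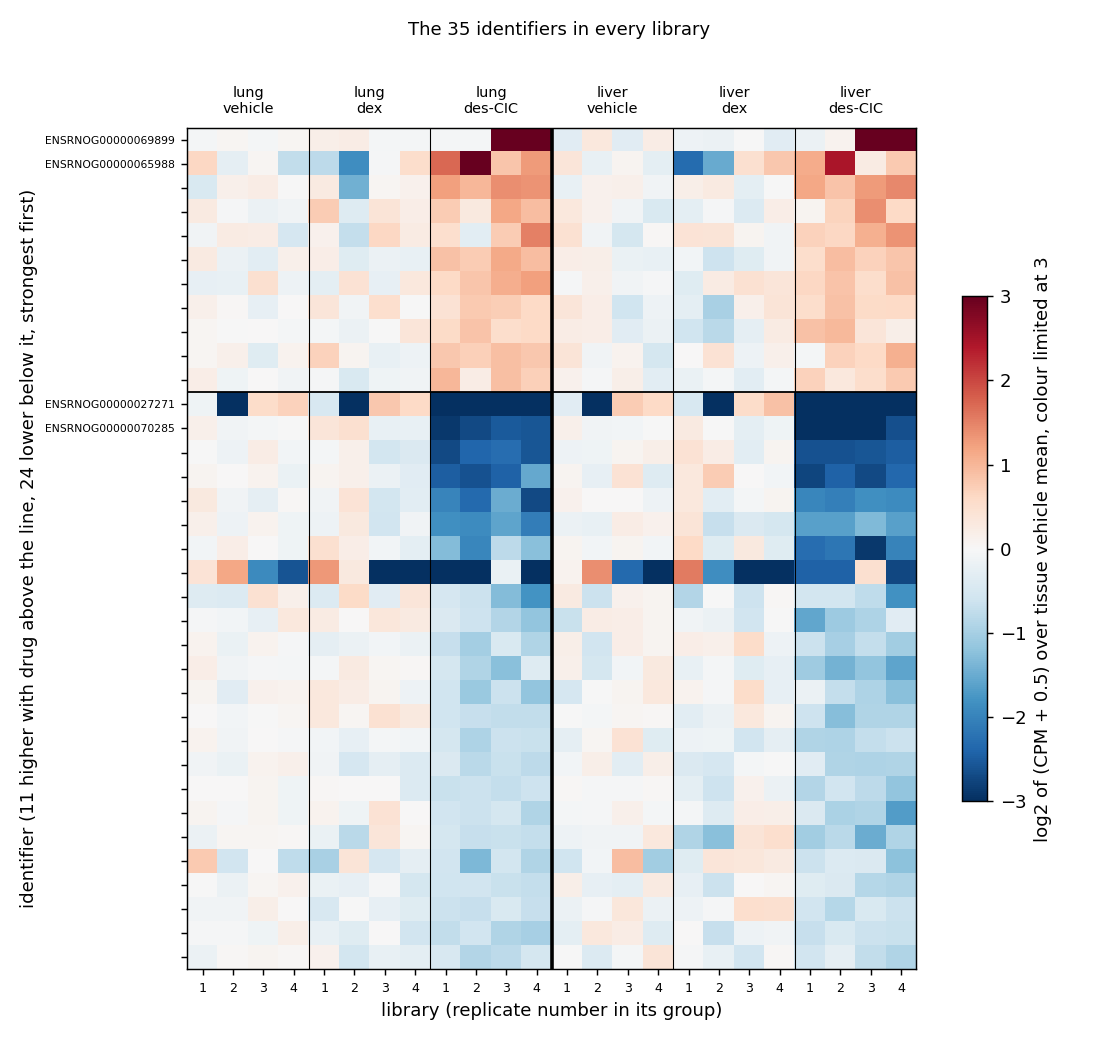
Each of the 35 identifiers (rows) in each of the 24 libraries (columns, by tissue, treatment and replicate number), coloured by the log2 of CPM + 0.5 over the vehicle mean of that tissue, with the 11 higher identifiers above the horizontal line (dex, dexamethasone; des-CIC, desisobutyryl ciclesonide). Rows even across the desisobutyryl ciclesonide columns stand beside rows in which numbered columns of any treatment differ, such as ENSRNOG00000027271 at 1.32 CPM in lung vehicle replicate 2.

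The even pattern was clearest in ENSRNOG00000070285, the second strongest of the lower identifiers. In lung its 4 vehicle libraries held 229, 193, 201 and 207 CPM, its dexamethasone libraries 269, 290, 178 and 176.5 CPM, and its desisobutyryl ciclesonide libraries 27.3, 31.1, 36.0 and 34.8 CPM. In liver the values were 139.9, 117, 119 and 125 CPM, then 150.5, 125, 102 and 114 CPM, then 13.1, 13.4, 15.1 and 19.7 CPM. All 8 desisobutyryl ciclesonide libraries were low, and no library of that drug came near the range of the other treatments. The level was 6.34-fold lower in lung and 7.93-fold lower in liver, while the dexamethasone folds were 1.10 and 0.984.

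The next 3 lower identifiers in the order were separated as fully, with more spread in the lung drug libraries of the fourth and the fifth. The third stood at 85.9 to 111.7 CPM in vehicle lung, 64.9 to 106.5 CPM with dexamethasone and 14.2 to 19.1 CPM with desisobutyryl ciclesonide, and in liver at 21.4 to 26.9, 19.2 to 32.3 and 3.48 to 3.93 CPM. The fourth stood at 11.3 to 14.1, 10.2 to 14.7 and 1.72 to 4.17 CPM in lung, and at 42.2 to 74.5, 52.6 to 94.9 and 7.82 to 10.3 CPM in liver. The fifth stood at 7.64 to 11.6, 6.22 to 12.6 and 1.01 to 3.05 CPM in lung, and at 14.4 to 17.4, 12.7 to 20.003 and 3.45 to 4.09 CPM in liver. In each of the 3, every desisobutyryl ciclesonide library lay under every other library of its tissue. Their folds down were 5.58, 4.58 and 4.15 in lung and 5.91, 5.87 and 3.81 in liver. Without drug the third was the more abundant in lung and the fourth in liver. For the third the log2 difference from liver was 0.67 with TMM scaling (edgeR adjusted p = 0.000306) and 1.98 on unscaled CPM.

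Across the 12 libraries of each tissue, 22 of 15871 other identifiers followed ENSRNOG00000070285 with a Pearson correlation of at least 0.9 in lung and in liver, and 5 of the 22 were members. One identifier ran opposite to it at -0.9 or below in both tissues. These correlations are a description: the libraries share depth and treatment, and the treatment difference that chose the identifier sets most of their size.

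The sixth, the seventh and the fifteenth of the lower identifiers were separated in the same way, and differed in level and in how alike the tissues were. The seventh, with the least alike folds of the 35, was a gene of low level: it stood at 3.10 ± 0.375 CPM in vehicle lung (SD, n = 4) and 0.996 ± 0.472 CPM in lung of the desisobutyryl ciclesonide group. Its liver levels were 6.69 ± 0.495 and 0.961 ± 0.354 CPM, for folds down of 2.40 and 4.92. The fifteenth was the most abundant of the 35. It held 608, 523, 568 and 545 CPM in vehicle lung, 531, 474, 540.1 and 528 CPM with dexamethasone and 389, 294, 358 and 355 CPM with desisobutyryl ciclesonide. In liver it held 315, 393, 510.1 and 296, then 339, 347, 253 and 315, then 203, 199, 229 and 242 CPM. The drug libraries were the lowest in both tissues, with folds down of 1.61 in lung and 1.73 in liver.

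Among the higher identifiers the third, the sixth, the seventh and the eleventh were separated in both tissues. The even pattern is given here for the third. Its vehicle lung libraries held 5.99, 9.38, 9.79 and 8.32 CPM, its dexamethasone libraries 10.2, 2.75, 8.69 and 9.25 CPM and its desisobutyryl ciclesonide libraries 20.5, 17.3, 22.9 and 22.0 CPM. In liver it held 4.19, 5.46, 5.51 and 4.54, then 5.59, 5.99, 3.90 and 4.88, then 11.5, 9.38, 12.6 and 14.2 CPM. In both tissues its desisobutyryl ciclesonide libraries lay above all vehicle and dexamethasone libraries, and the folds were 2.38 in lung and 2.29 in liver. The eleventh, the weakest of the higher identifiers, was separated too: it held 92.6, 73.6, 80.9 and 75.4 CPM in vehicle lung, 78.2, 58.5, 74.3 and 74.5 CPM with dexamethasone and 162, 94.4, 152 and 133 CPM with desisobutyryl ciclesonide. In liver its vehicle and dexamethasone libraries spanned 72.6 to 102 CPM and its desisobutyryl ciclesonide libraries 114 to 157 CPM, with folds of 1.67 in lung and 1.51 in liver.

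The strongest identifier in each direction instead followed the replicate number. ENSRNOG00000027271, the strongest of the lower identifiers, held 78.2, 1.32, 124.8 and 137.8 CPM in vehicle lung and 61.6, 0.741, 149.5 and 130.8 CPM in dexamethasone lung. In liver it held 41.9, 0.398, 89.4 and 79.6 CPM with vehicle and 37.6, 0.378, 77.4 and 97.4 CPM with dexamethasone. With desisobutyryl ciclesonide it held 1.00, 1.68, 0.549 and 1.20 CPM in lung and 0.695, 0.690, 0.760 and 0.725 CPM in liver. Replicate 2 of vehicle and replicate 2 of dexamethasone were thus as low as the 8 desisobutyryl ciclesonide libraries, in both tissues, and the groups overlapped. The folds down on group means were 53.5 in lung and 43.8 in liver, with dexamethasone folds of 1.00 and 1.01. Vehicle and dexamethasone each had 1 low number of 4, and their means were close.

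ENSRNOG00000069899, the strongest of the higher identifiers, was well above 0 in 2 numbers of 1 treatment. In lung it held 0.00, 0.00, 11.2 and 12.6 CPM with desisobutyryl ciclesonide, and in liver 0.0580, 0.173, 16.7 and 13.3 CPM. The 8 vehicle and dexamethasone lung libraries held at most 0.106 CPM and the liver ones at most 0.285 CPM. Replicates 3 and 4 were high in both tissues, and replicates 1 and 2 lay with the other treatments. Over the 4 libraries of a group there were 383 counts with desisobutyryl ciclesonide against 2 with vehicle in lung, a ratio of 206 per gene count (95% exact binomial counting interval 56.7 to 1709), and 638 against 9 in liver, a ratio of 63.3 (33.2 to 139). These intervals cover counting error only and not the difference between replicates.

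No other identifier matched either of these on-and-off patterns exactly at the level used. At a level of 2 CPM, 0 other identifiers of the 30560 were above it in exactly the 12 libraries in which ENSRNOG00000027271 was, and 0 were above it in exactly the other 12. For ENSRNOG00000069899, above 2 CPM in 4 libraries, the counts were 0 and 0 as well. For each of the 2, 0 of 15871 other identifiers had a Pearson correlation of at least 0.9 with it in lung and in liver. Looser likeness was not looked for.

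ENSRNOG00000065988, the second strongest of the higher identifiers, varied by number on top of the group difference. In lung it held 41.9, 22.5, 28.2 and 16.2 CPM with vehicle, 15.5, 7.15, 26.7 and 39.7 CPM with dexamethasone and 91.1, 321, 48.5 and 66.4 CPM with desisobutyryl ciclesonide. In liver it held 98.0, 65.0, 80.7 and 62.1, then 15.002, 26.4, 106 and 134, then 165.5, 422, 90.8 and 133 CPM. Replicate 2 of desisobutyryl ciclesonide was the highest library in each tissue. In lung the desisobutyryl ciclesonide libraries lay above all vehicle and dexamethasone libraries. In liver replicate 3 of desisobutyryl ciclesonide lay inside the vehicle range, and replicates 3 and 4 lay under the highest dexamethasone library. In replicate 2, reads aligned to several places made up 4.59% of entries in lung and 4.02% in liver, the highest share of each tissue, and the part of this in the level was not tested. The folds were 4.77 in lung and 2.64 in liver. Without replicate 2 of desisobutyryl ciclesonide the log2 fold in lung was 1.32, against 2.25 with it, and in liver 0.76 against 1.40.

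The eighth of the lower identifiers, picked out after its values were seen, had group means far from most of its libraries. It held 170.6, 286, 33.9 and 20.9 CPM in vehicle lung, 315.5, 156, 3.45 and 2.80 CPM in dexamethasone lung and 11.1, 8.75, 110.8 and 5.68 CPM in desisobutyryl ciclesonide lung. In liver it held 67.9, 169, 12.3 and 5.00, then 189, 17.1, 1.07 and 0.624, then 11.4, 11.5, 88.8 and 9.09 CPM. The same numbers were high in lung and liver of a treatment, and the 3 treatments overlapped. Its folds on group means were 3.72 down in lung and 2.09 down in liver with desisobutyryl ciclesonide, and 0.934 and 0.818 with dexamethasone.

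**Figure D3:**
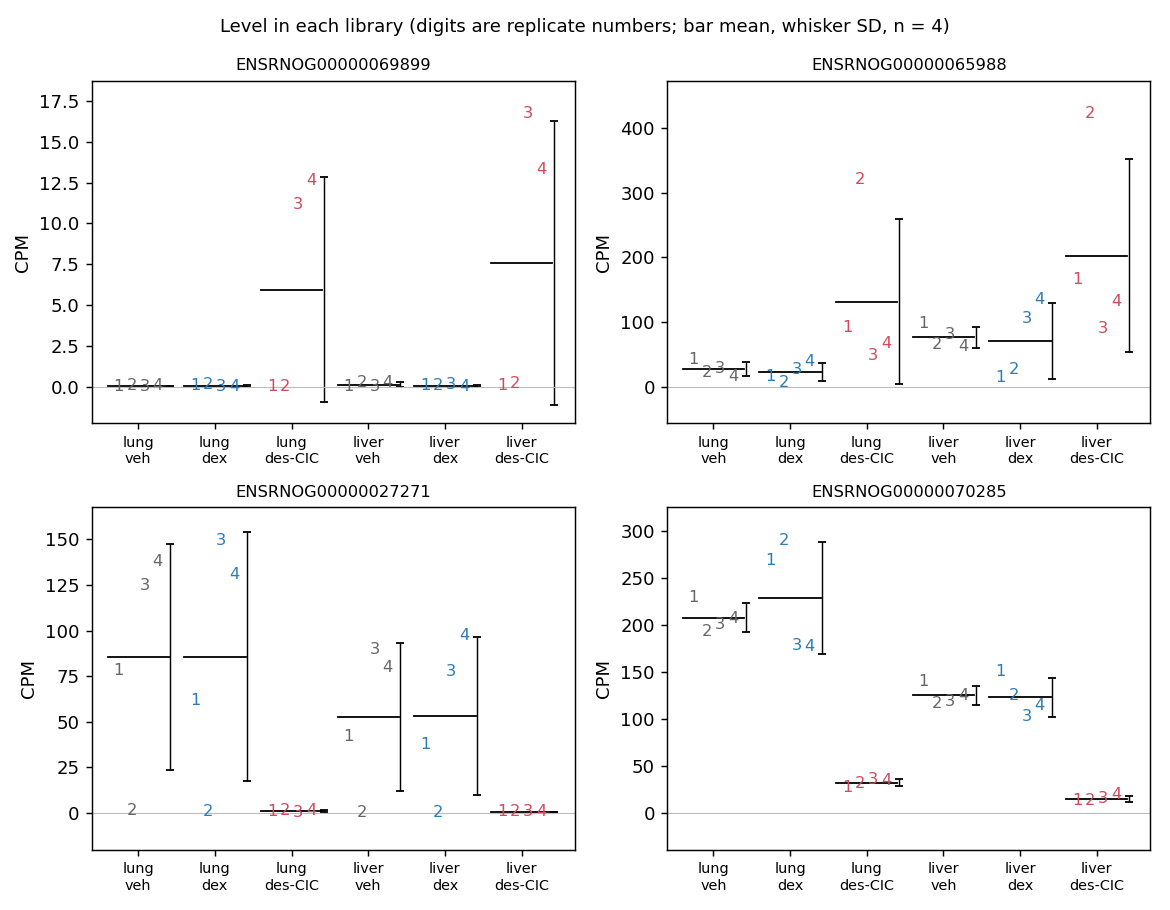
CPM of the 4 identifiers given by name in every library of lung and liver under vehicle (grey), dexamethasone (blue) and desisobutyryl ciclesonide (red); digits are replicate numbers, the bar is the mean and the whisker the SD of 4 libraries. ENSRNOG00000070285 is low in all red libraries (27.3 to 36.0 CPM in lung), ENSRNOG00000069899 is present in replicates 3 and 4 of that drug, and ENSRNOG00000027271 is also low in replicate 2 of the other treatments.

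Most members were less scattered than these. The highest library of a group exceeded the lowest by more than 4 times, on CPM + 0.5, in at least 1 of the 6 groups for 4 of the 35, against 4.08% of the 10675 identifiers at the level minimum. The members' median ratio of highest to lowest library was above that of the 10675 in each of the 6 groups. In lung vehicle it was 1.26 against 1.23, and in liver vehicle 1.57 against 1.39. The same number was the highest desisobutyryl ciclesonide library in lung and liver for 16 of the 35, where the background was 36.6%, and the lowest for 15, where it was 38.3%. With vehicle the counts were 15 highest, against 30.8%, and 16 lowest, against 33%. With dexamethasone they were 11 highest, against 33.2%, and 17 lowest, against 39.1%. The labels do not say whether a number marks a pup.

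The 35 were also set against a test across all genes, edgeR's quasi-likelihood test with Benjamini-Hochberg adjustment at 0.05. With desisobutyryl ciclesonide 24.1% of 16108 genes were called in either direction in lung and 4.52% of 13734 in liver. ENSRNOG00000069899 did not pass the expression filter, which left 34 of the 35 in each fit. In lung 9 of 10 higher identifiers were called higher, where 11.8% of all genes tested were, and 21 of the 24 lower ones were called lower, where 12.3% were. In liver 5 of 10 were called higher against a background of 2.09%, and 12 of the 24 were called lower against 2.43%. The rule used these contrasts, so nothing is read from the counts against the background. Of the 34 identifiers in each fit, 17 thus carry no call in liver.  The liver count of higher identifiers was 3 of 10 without desisobutyryl ciclesonide replicate 3 or 4 or vehicle replicate 2 or 4, and that of lower ones was as few as 8 of 24, without desisobutyryl ciclesonide replicate 2 or vehicle replicate 3. With DESeq2, which kept all 35, 10 of 11 were called higher in lung (12.9% of all genes with an adjusted p) and 22 of 24 lower (12.2%). In liver DESeq2 called 9 of 11 higher (3.74%) and 17 of 24 lower (3.78%). For dexamethasone, 1 of 34 was called in lung, where 55.6% of all genes were, and 1 of 34 in liver, where 47.5% were, as the window in the rule favours.

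The rule did not compare lung with liver under vehicle, though the vehicle means entered its level minimum and its folds. In the 8 vehicle libraries, 23 of the 34 in the fit differed between the tissues by edgeR's test without a replicate block (adjusted p under 0.05). Of these, 9 were higher in lung and 14 higher in liver. Of 15294 genes tested, 74.3% differed, 38.9% higher in lung and 35.4% higher in liver. Those genes did not have to reach the level minimum in both tissues, so the shares are not on like sets. The median log2 difference, lung minus liver, was -0.44 among the 34 and 0.06 over all genes tested. Without TMM scaling the median gene stood 1.29 higher in lung on the log2 CPM scale, and 6 of the 14 called higher in liver were then higher in lung, ENSRNOG00000070285 among them. The remaining 8 were higher in liver and the 9 higher in lung on either scale.

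The seventh of the higher identifiers showed the widest difference between tissues, at 3.62 ± 1.11 CPM (SD, n = 4) in vehicle lung and 178 ± 14.6 CPM in vehicle liver (log2 difference -6.95, edgeR adjusted p = 1.89e-11). With desisobutyryl ciclesonide it stood at 7.50 ± 1.53 and 294.8 ± 34.4 CPM, folds of 1.94 and 1.66. The fourth of the lower identifiers stood at 13.1 ± 1.25 CPM in vehicle lung and 55.4 ± 14.4 CPM in vehicle liver (log2 difference -3.42, edgeR adjusted p = 1.69e-08). ENSRNOG00000065988 stood at 27.2 ± 10.9 and 76.5 ± 16.5 CPM (log2 difference -2.82, edgeR adjusted p = 8.49e-06). The difference in ENSRNOG00000027271 passed when lung and liver of the same number were paired (log2 difference -0.57, edgeR adjusted p = 0.00544 with the replicate block) and did not without the block (-0.67, adjusted p = 0.687), while its unscaled means were 85.5 CPM in lung and 52.8 CPM in liver.

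The desisobutyryl ciclesonide libraries differed from the other 16 in more than the drug. Their deposited file names form a numbered series of their own, and those from liver share a suffix that no other library has. In lung 0.930% to 1.25% of their entries were unaligned, against 1.93% to 3.50% in the 8 other libraries, and in liver 0.801% to 1.40% against 1.88% to 3.32%. Entries aligned outside genes were 13.1% to 13.6% against 15.6% to 21.0% in lung and 6.70% to 8.10% against 9.97% to 11.8% in liver. Entries aligned to several places were 3.39% to 4.59% against 2.59% to 3.17%, and 3.34% to 4.02% against 2.43% to 3.18%. None of these ranges overlap. Gene counts, 15839958 to 27881158 in lung and 15397992 to 26194384 in liver, overlapped between the treatments. Each of the 35 identifiers rests on the contrast between these 8 libraries and the rest. In all of them the drug and the file-name series cannot be told apart, since neither series holds both the drug and a comparison group.

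**Figure D4:**
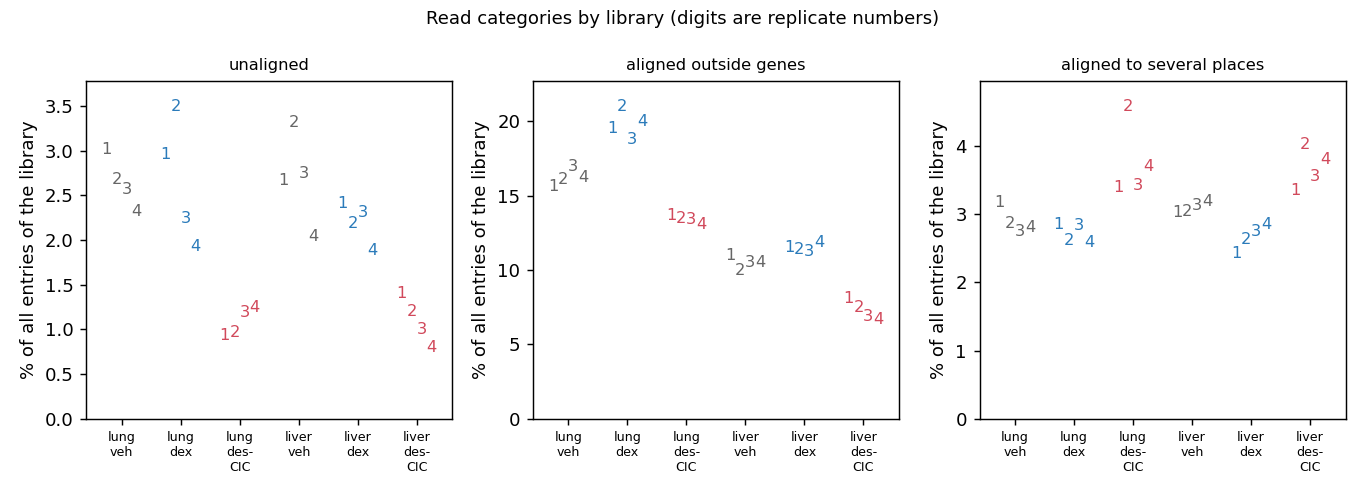
Share of all entries of a library (y axis, %) that were unaligned, aligned outside genes or aligned to several places, by tissue and treatment; digits are replicate numbers. The desisobutyryl ciclesonide libraries lie below the others of their tissue in the first and second panels (unaligned 0.930% to 1.25% in lung) and above them in the last.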

How the data were processed

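The authors deposited whole-number read counts per Ensembl gene identifier for each library, not normalized, followed by 5 summary rows of reads not assigned to a gene. The build mRatBN7.2 and the tools cutadapt, HISAT2 and HTSeq are listed in the submitters' processing notes. Versions and the strand setting of the counting are not given in the sources used here, so reads of overlapping, antisense or duplicated genes may be split wrongly. Per the labels' protocols the libraries were directional and poly(A)-selected. The summary rows, 16.8% to 31.8% of entries, were left out of library sizes and tests.

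CPM and the selection rule were computed with pandas 2.3.3 in Python 3.11.15. Tests used edgeR 4.0.16 in R 4.3.3: default expression filter, TMM, robust quasi-likelihood fit of the 12 libraries of a tissue (or the 8 vehicle libraries), Benjamini-Hochberg adjustment. DESeq2 1.42.0 was an alternative. The selection rule and the edgeR test were run on simulated counts with planted changes, and DESeq2 was not. The counts simulated for the rule were Poisson, with less spread between replicates than these data. The members and lists were chosen with earlier results of these data known. The naming rule took the 2 strongest identifiers each way by the smaller of the lung and liver folds, for want of names. Replicates differed beyond sampling noise in all 36 pairs within groups (chi-square per degree of freedom at least 11.6). Lung and liver libraries of one treatment and number deviated together (Pearson r from 0.150 to 0.360 in 12 pairs). The number is thus a pairing across tissues by the data and not by the labels. It entered only the replicate block, an alternative, and the main tests ran without that block. P-values rest on the spread between these libraries. Alternatives were other scalings, pseudocounts, filters and limits, and leaving out libraries.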

Additional observations from a re-analysis of the deposited data

Results flagged for a closer look

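ENSRNOG00000065988 stood at 321 CPM in lung desisobutyryl ciclesonide replicate 2, far from the other 3 libraries of its group, the highest of which held 91.1 CPM. It was the 1 such value among 24 group values of the 4 identifiers given by name. Over all 35 identifiers 15 of 210 group values, or 7.14%, had a library this far out by the same criterion (Dixon's 95% critical value for 4 samples), where chance gives about 1 in 20 groups.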

How the results depend on the processing

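Which identifiers met the rule depended on scaling more than their number did: 35 on plain CPM, 30 with TMM-scaled sizes (16 shared) and 28 with DESeq2 size factors (13 shared). On plain CPM the median log2 fold with dexamethasone was -0.21 in liver and -0.13 in lung, against 0.01 and -0.03 with TMM. With desisobutyryl ciclesonide it was -0.04 in liver and -0.11 in lung, against 0.004 and -0.02 with TMM. With TMM all 35 kept their direction in both tissues and 24 stayed inside the dexamethasone window. The count was 88 with no minimum level, 60 at 1 CPM, 15 at 10 CPM, 11 at a 2-fold limit and 72 with a 1.5-fold dexamethasone window. Leaving out 1 library, or 1 number of a treatment in both tissues, gave 27 to 44. 6 identifiers were kept in each of these 36 omissions, 2 higher (ENSRNOG00000069899 and the third) and 4 lower, ENSRNOG00000070285 among them. ENSRNOG00000027271 was lost in 8 of the 24 single omissions and ENSRNOG00000065988 in 6. The log2 folds of the 4 identifiers given by name kept their direction under every alternative run. The same values chose these identifiers, so nothing is read from this. ENSRNOG00000069899 was high in more than 1 desisobutyryl ciclesonide library of each tissue, and ENSRNOG00000027271 in more than 1 vehicle library. Leaving out 1 library or number could therefore not turn their direction, whatever the spread between replicates.

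Genes called with desisobutyryl ciclesonide numbered 3884 in lung (2564 to 3366 with 1 library left out, the lowest without desisobutyryl ciclesonide replicate 3) and 621 in liver (295 to 482: 358, 295 and 374 without vehicle replicates 2, 3 and 4, and 409, 379 and 322 without desisobutyryl ciclesonide replicates 2, 3 and 4; 1156 with DESeq2). Across treatments, libraries of one number did not deviate together throughout. Pearson r with vehicle in lung ran from -0.296 to 0.298 for dexamethasone and from -0.078 to 0.199 for desisobutyryl ciclesonide. In liver the ranges were -0.161 to 0.022 and -0.041 to 0.155. The replicate block gave 3697 and 442 for desisobutyryl ciclesonide (in liver 3 of 10 higher and 10 of 24 lower identifiers), 8932 and 6177 for dexamethasone, and for vehicle lung against liver 11356 genes and 24 of the 34 identifiers, changing no call but that of ENSRNOG00000027271 among them.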
